A study of Rattus norvegicus with 30 samples.

Results

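Genes of the endoplasmic reticulum (ER) stress response were analyzed in brain RNA of 30 rats, 10 wild type (WT), 10 HIP and 10 amylin knockout (AKO). The set holds 37 genes chosen by symbol for their roles in ER protein folding, ER-associated degradation (ERAD) and the unfolded protein response (UPR), of which 36 were found among the 17134 genes of the table. Manf is not analysed here. By role, the set has 17 chaperones and folding enzymes, 9 ERAD genes, 6 genes of the PERK-ATF4 arm, 2 genes of the IRE1-XBP1 arm (Ern1 and Xbp1), the sensor gene Atf6 and the translocon gene Sec61b. All 36 passed the filter on low values in every comparison. The genes were chosen with results of these group comparisons already known, so their counts and directions are given as descriptions beside the same counts for all genes.

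The ER folds and glycosylates proteins that enter the secretory pathway, and Hspa5 (BiP), its most abundant Hsp70 chaperone, also holds the 3 UPR sensors IRE1, PERK and ATF6 inactive. When unfolded proteins accumulate, IRE1 splices Xbp1 mRNA and ATF6 is cut to an active form, and both raise chaperone and ERAD genes through the ER stress response element (ERSE). PERK phosphorylates eIF2α, which slows translation and favors that of ATF4, a transcription factor that raises amino acid synthesis and transport genes, Ddit3 (CHOP), Trib3 and Chac1. The same eIF2α switch can be thrown by other kinases, and is then called the integrated stress response. Neurons, with their large secretory and membrane protein load, express the whole pathway without stress.

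The human amylin of HIP rats is made by their pancreatic β-cells, and these animals develop type-2 diabetes. AKO rats lack rat amylin, and WT rats express their own. All rats were males on a normal diet. HIP and WT rats were 15 to 16 months old, and the age of the sequenced AKO rats is not stated for the RNA-seq. The tissue is frontal cortex in the sample annotation, cerebral cortex in the methods and hippocampus in the results of the study. Amylin itself is not analysed here. Bulk RNA was measured, so fewer cells of a type and less RNA per cell cannot be told apart. Nothing in the annotation ties rats to litters or batches, and p-values measure the spread between single rats. Of the 10 AKO rats, 4 have names with KAH (4KAH27, 4KAH35, 6KAH98 and 6KAH99) and 6 have names with AKO. What these names mean is not given, and a difference between them was not tested. All WT and HIP rats have names with RT, and no AKO rat does. The AKO genotype therefore cannot be told apart from age or from anything else that goes with these names.

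The values are normalized read counts, from estimated reads of 12.9 to 23.6 M (10⁶) per library. HIP libraries had fewer estimated reads than WT libraries, with medians of 15.7 M and 19.1 M. Summed levels of neocortical layer markers were 9396 to 16773 in 9 WT rats, 9290 to 15584 in HIP and 9166 to 14952 in AKO rats, and 3760 in WT rat 10RT43. A few libraries held markers of cerebellum or pineal gland. WT rat 10RT43 had 17979 normalized counts of the cerebellar granule cell gene Gabra6, HIP rat 12RT23 had 1564, and HIP rat 10RT46 had 19081 of the pineal gene Tph1. These 3 libraries were kept in the comparisons and every comparison was repeated without them, on 9 WT, 8 HIP and 10 AKO rats. The repeat does not make the tissue uniform. Summed olfactory bulb markers were then 221 to 10783 in WT, 176 to 5975 in HIP and 233 to 9829 in AKO rats. Choroid plexus markers reached 4072 in AKO rat 7AKO19 (AKO median 359), and striatal markers 25119 in WT rat 10RT55 (WT median 8650). The part of this tissue in the ER genes was not tested. AKO rats 4KAH27 and 6KAH98 had both genes below 100 but also stood apart, with median correlations of 0.952 and 0.949 with the other rats across genes.

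The promoters of the set show the elements through which these arms are known to act. RefSeq promoter sequences of the rat assembly GRCr8 were available for 30 of the 37 genes, and the 250 bases before the transcription start were searched on both strands. The ERSE, searched on both strands as the letters CCAAT followed after 9 bases of any kind by the letters CCACG, was found in 8 genes, while 0.0657% of the 33469 promoters of all genes held it. It is shown in capitals for 7 of them, in the direction of each gene. Of the 6 genes that varied with Hspa5 among the pairs chosen for the test below, 4 hold it and are shown. Hyou1 and Dnajb11, outside those pairs, had an r to Hspa5 of 0.72 and 0.43 and hold no ERSE. Derl3, which had the largest fold change of the set in HIP vs. AKO rats, and Dnajc3 are shown as other genes that hold it, with an r to Hspa5 of -0.01 and 0.31.
Hspa5 (chr3:38452963-38453001, plus strand): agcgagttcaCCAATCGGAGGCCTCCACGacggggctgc
Hsp90b1 (chr7:23012337-23012375, minus strand): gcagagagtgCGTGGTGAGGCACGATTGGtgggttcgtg
Hsp90b1 (chr7:23012441-23012479, minus strand): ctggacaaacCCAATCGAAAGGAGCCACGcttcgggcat
Calr (chr19:40213125-40213163, plus strand): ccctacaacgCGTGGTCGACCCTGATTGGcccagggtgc
Dnajc3 (chr15:102432524-102432562, plus strand): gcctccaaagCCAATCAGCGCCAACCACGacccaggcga
Creld2 (chr7:121789229-121789267, plus strand): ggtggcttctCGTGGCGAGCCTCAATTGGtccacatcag
Derl3 (chr20:12766591-12766629, minus strand): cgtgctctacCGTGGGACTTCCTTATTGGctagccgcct
Xbp1 (chr14:84604548-84604586, plus strand): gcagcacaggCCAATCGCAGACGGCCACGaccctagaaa

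The elements began 43 bases before the start in Hspa5, 65 in Xbp1, and up to 232 in Calr. Hsp90b1 was the only gene of the set with a second copy. The related ERSE-II, searched on both strands as the letters ATTGG followed after 1 base of any kind by the letters CCACG, was found in Hyou1, which had 2 copies, and in Herpud1, against 0.0418% of all promoters. The first copy in Hyou1 overlapped the XBP1 element UPRE (TGACGTGG), which 0.52% of all promoters held. The ATF4 element CARE (TGATGNAA, or TTNCATCA) was found in Herpud1, Trib3 and Chac1, against 3.40% of all promoters. The cyclic AMP element CRE (TGACGTCA) was found in 0 genes of the set. A match describes the letters of these windows and not binding in the tissue.
Hyou1, ERSE-II (chr8:53602684-53602714, plus strand): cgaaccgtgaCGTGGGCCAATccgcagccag
Hyou1, ERSE-II (chr8:53602784-53602814, plus strand): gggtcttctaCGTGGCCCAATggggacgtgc
Herpud1, ERSE-II (chr19:10614811-10614841, minus strand): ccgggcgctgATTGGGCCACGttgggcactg
Herpud1, CARE (chr19:10614874-10614901, minus strand): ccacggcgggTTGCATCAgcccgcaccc
Trib3, CARE (chr3:161275537-161275564, minus strand): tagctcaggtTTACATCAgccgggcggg
Chac1, CARE (chr3:126795954-126795981, plus strand): ttctccgccgTTGCATCActcctgctag

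**Figure D1:**
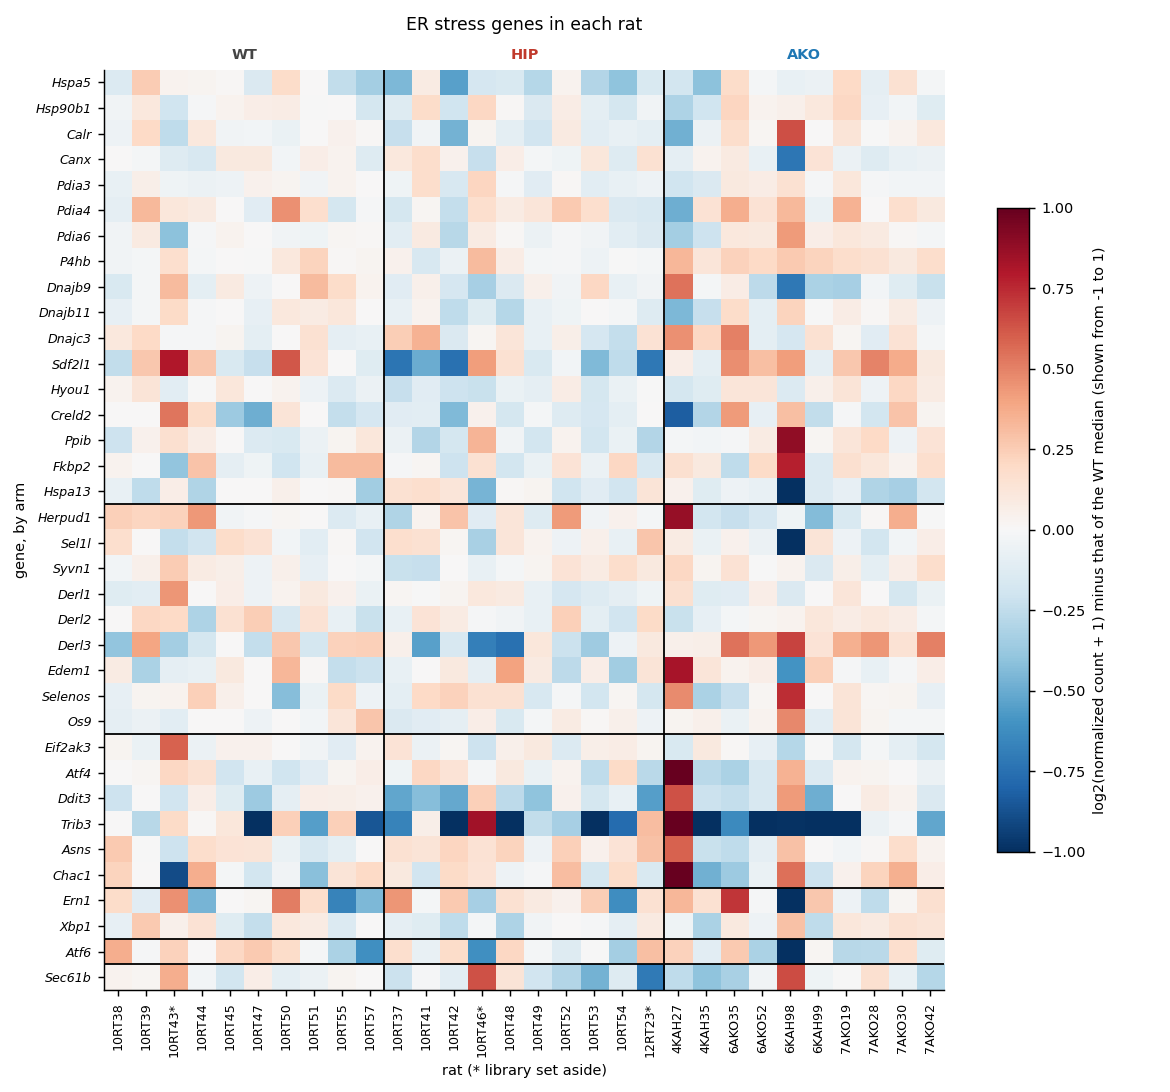
Each line of the map is a gene, ordered by arm, and each column a rat. Color gives log2(normalized count + 1) minus that of the median of the 9 WT rats without libraries set aside, clipped at -1 and 1. Sdf2l1 and Derl3 are lower in many HIP rats and higher in many AKO rats, and AKO rat 4KAH27 is high for Atf4, Ddit3, Trib3, Asns, Chac1 and Herpud1 and low for Creld2, Pdia4, Calr and Dnajb11.

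The comparison of HIP with WT rats asks whether diabetes with pancreatic human amylin alters these genes in the brain. Most chaperones had slightly lower means in HIP rats, and none passed the adjusted test. Here 0 of the 36 genes had an adjusted p under 0.05 (limma, two-sided, Benjamini-Hochberg), as did 0% of the 17085 genes tested and 0% without the libraries set aside. Of the 17 chaperones and folding enzymes, 14 had a lower mean in HIP rats, and 15 of 17 without the libraries set aside, against 49.4% and 49.9% of all genes, and the median log2 fold change was -0.07 for the arm and 0.00 for all genes. Of the 36 genes, 5 had an unadjusted p under 0.05, 4 with lower and 1 with higher means in HIP rats, against 2.57% of all genes in either direction and 1.46% with lower means. These were Sdf2l1, Dnajb11, Hspa5, Hyou1 and, with the higher mean, Asns. Without the libraries set aside the number was again 5, all with lower means, against 3.78% of all genes in either direction and 2.2% with lower means, and the genes were Sdf2l1, Ddit3, Calr, Hyou1 and Hspa5.

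Hspa5 encodes the master chaperone BiP. Its level was lowest at 4362, median 5529 and highest at 6587 normalized counts in WT rats, and 3778, 4715 and 5845 in HIP rats. The groups overlapped, but 8 of 10 HIP rats were below the WT median. HIP rats had a mean 12.8% below that of WT rats (-0.20 on the log2 scale, 95% interval -0.38 to -0.02, limma adjusted p = 0.999), and 13.5% below it without the libraries set aside.

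Sdf2l1, a stromal-derived factor-like protein that works with the BiP cochaperone Dnajb11, had the largest difference of the arm. It ranged from 116 to 240 normalized counts in WT rats (median 144.6) and from 81.8 to 184 in HIP rats (median 108). The highest WT and HIP rats were the libraries with cerebellum and pineal gland, 10RT43 and 10RT46. The log2 fold change was -0.43 (95% interval -0.77 to -0.09, limma adjusted p = 0.999), and -0.40 without the libraries set aside. Its partner Dnajb11, an Hsp40, ranged from 801 to 967 in WT rats and from 697 to 872 in HIP rats, and 9 of 10 HIP rats were below the WT median (log2 fold change -0.13).

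Hyou1 is a large Hsp110-like exchange factor of BiP. It ranged from 2041 to 2456 normalized counts in WT rats (median 2238) and from 1914 to 2364 in HIP rats (median 2085). The shift was small, with 9 of 10 HIP rats below the WT median (log2 fold change -0.11, 95% interval -0.21 to -0.00). Across the 27 rats Hyou1 correlated with estimated reads (r = 0.63), and HIP rats had fewer reads. The calreticulin gene Calr, a lectin chaperone of glycoproteins, went from 7071 to 8481 in the 9 WT rats and from 5332 to 7861 in the 8 HIP rats, with a log2 fold change of -0.16 (95% interval -0.29 to -0.03, limma adjusted p = 1). Its partner calnexin, Canx, had a log2 fold change of 0.04.

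With estimated reads as a covariate, on the rats without the libraries set aside, 0 genes of the set had an unadjusted p under 0.05 in HIP vs. WT rats, against 1.59% of all genes. These HIP rats had 13.7 to 16.7 M estimated reads and these WT rats 16.3 to 21.1 M. Reads and group thus overlapped little, and this fit cannot separate them. With all 30 rats in a common fit 2 did, against 1.99% of all genes. The count of 5 went to 2 when WT rat 10RT39, WT rat 10RT50 or HIP rat 10RT42 was left out, and to 3 without HIP rat 10RT37.

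Which rats held the extremes of the chaperones was counted beside the same count over all genes, and the rats named here were chosen after their values were seen. HIP rat 10RT42 had the lowest level of its group for 9 of the 17 chaperones (Hspa5, Hsp90b1, Calr, Pdia3, Pdia4, Pdia6, Sdf2l1, Creld2 and Fkbp2), and for 6.21% of all genes. Its Hspa5 level of 3778 was the lowest of all 30 rats. WT rat 10RT39, in turn, had the highest level of its group for 7 of the 17 chaperones and for 3.74% of all genes, with the highest Hspa5 level of all rats, 6587. Other rats lay the opposite way. HIP rat 10RT41 was highest of its group for 6 of the 17 chaperones (10.5% of all genes), and WT rat 10RT38 lowest for 5 (7.79% of all genes). Of the 6 PERK-ATF4 genes, 0 were at an extreme of the group in 10RT42 or 10RT39.

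**Figure D2:**
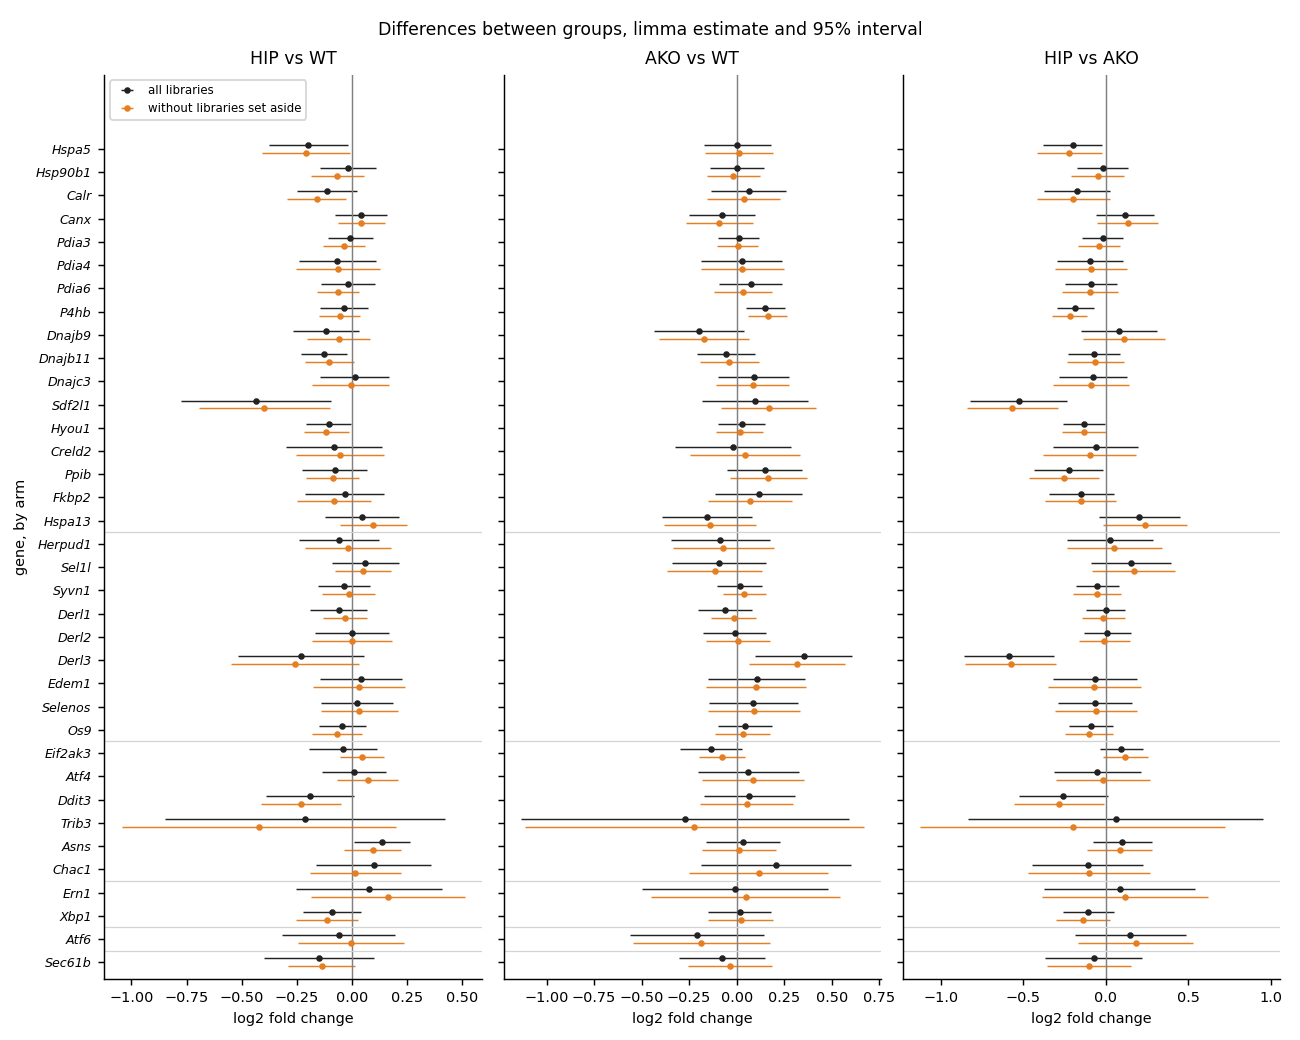
Points give the log2 fold change of each of the 36 genes from limma and bars its 95% interval, with all libraries in black and without the libraries set aside in orange; axes differ between panels. Most intervals cross 0, and those of Sdf2l1 and Derl3 in HIP vs. AKO rats lie farthest below it.

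The comparison of AKO with WT rats sets rats without amylin beside rats with their own. It cannot tell the loss of amylin apart from what differs with the rat names or age. The 3 comparisons share their groups with each other, so their values stand side by side and are not independent. In AKO rats 0 of the 36 genes had an adjusted p under 0.05 (limma), against 0.0997% of the 17058 genes tested, and 0 of 36 against 0.123% without the libraries set aside. Only P4hb and Derl3 had an unadjusted p under 0.05, with all libraries and without those set aside, against 9.34% and 10.3% of all genes. Both had higher means in AKO rats, as did 5.23% and 5.56% of all genes at that threshold. The share of the set, 2 of 36, was below that of all genes.

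P4hb encodes protein disulfide isomerase, which forms disulfide bonds and is also a subunit of the collagen prolyl hydroxylase. It ranged from 1916 to 2288 normalized counts in WT rats (median 1972) and from 2096 to 2471 in AKO rats (median 2232). All 10 AKO rats were above the WT median, with a log2 fold change of 0.15 (95% interval 0.05 to 0.25, limma adjusted p = 0.337). Under sample-quality weights the difference passed the adjusted test (0.17, limma adjusted p = 0.0121), the only one of the set to do so, but 5.02% of all genes passed it under these weights. At the unadjusted threshold 5 of the 36 then passed, against 23% of all genes.

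Derl3, a derlin that helps draw misfolded glycoproteins out of the ER, ranged from 63.1 to 110 normalized counts in WT rats (median 78.5) and from 86.4 to 133.6 in AKO rats (median 110). All 10 AKO rats were above the WT median here as well (log2 fold change 0.35, 95% interval 0.10 to 0.61, limma adjusted p = 0.367). Derl3 belongs to a list of plasma cell markers, of which 4 were tested. Of these, 2 had an unadjusted p under 0.05, with and without the libraries set aside. Their log2 fold changes ran from -0.0007 to 0.69 over the 4 with all libraries (median 0.52). The other chaperones differed little, with log2 fold changes from -0.20 for Dnajb9 to 0.15 for P4hb and Ppib, and Hspa5 was near level (0.00, 95% interval -0.17 to 0.18). Markers of cell types also moved. Of 9 microglia markers, 5 had an unadjusted p under 0.05 (6 without the libraries set aside), with log2 fold changes from -0.48 to 0.87. For oligodendrocyte precursors 2 of 5 did (0 without those libraries), and all 5 were higher in AKO rats (0.14 to 0.35). The part of these and the plasma cell markers in the differences of the ER genes was not tested.

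HIP rats, which have human amylin and develop type-2 diabetes, were also set against AKO rats, without amylin. The lowest p-values of the set were in this comparison, for Derl3, Sdf2l1 and P4hb. With all libraries, 0 of the 36 genes had an adjusted p under 0.05 (limma), against 0.17% of the 17092 genes tested, and 0 of 36 against 0.258% without the libraries set aside. Of the 36 genes, 6 had an unadjusted p under 0.05, against 12.7% of all genes (6.9% with lower means), and all 6 had lower means in HIP rats (Derl3, Sdf2l1, P4hb, Hspa5, Ppib and Hyou1). Without the libraries set aside there were again 6, all lower in HIP rats, against 15.1% of all genes (7.81% with lower means), with Ddit3 in place of Hyou1. Of the 17 chaperones, 14 had lower means in HIP rats with and without those libraries, against 49% and 49.6% of all genes. Markers of other cell types moved in this comparison too. Of 9 microglia markers, 5 had an unadjusted p under 0.05, and 3 without the libraries set aside. Their log2 fold changes went both ways, from -0.85 to 0.52, with a median of -0.30 over the list. Their summed level was 3916 to 13034 normalized counts in HIP and 4512 to 7373 in AKO rats. All 5 markers of oligodendrocyte precursors had lower means in HIP rats (-0.42 to -0.12), 2 of them with an unadjusted p under 0.05, and summed to 2878 to 3988 in HIP and 3022 to 5498 in AKO rats. Other lists also held markers at that threshold, among them 2 of 8 for astrocytes (median log2 fold change -0.01) and 2 of 9 for neocortical layers (0.17). The part of these markers in the differences of the ER genes was not tested.

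Derl3 ranged from 49.2 to 90.1 normalized counts in HIP rats (median 72.9) and, as above, from 86.4 to 133.6 in AKO rats. All 10 HIP rats were below the AKO median, and the ranges overlapped only between 86.4 and 90.1. The difference was -0.59 on the log2 scale (95% interval -0.86 to -0.31), the smallest p of the set (limma adjusted p = 0.0762). It passed the adjusted test with all 30 rats in a common fit (limma adjusted p = 0.0379), as did 0.328% of all genes. It also passed without AKO rat 4KAH27 (limma adjusted p = 0.0386), where the share of all genes was not counted. It did not pass without the libraries set aside (-0.57, limma adjusted p = 0.0662).

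Sdf2l1 ranged from 129 to 194 normalized counts in AKO rats (median 168), above the HIP median of 108 in every rat. The log2 fold change was -0.53 (95% interval -0.82 to -0.23, limma adjusted p = 0.143), and -0.57 without the libraries set aside (limma adjusted p = 0.068). HIP rat 10RT46, the pineal library, had the highest HIP value, 184. Without it Sdf2l1 passed the adjusted test (-0.61, limma adjusted p = 0.0335), but the share of all genes that did so was not counted.

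P4hb ranged from 1752 to 2437 in HIP rats (median 1941), and the highest HIP value was again that of 10RT46. Without the libraries set aside the highest HIP rat was at 2060 and the lowest AKO rat at 2096, so these groups did not overlap, as was the case for 0.0529% of all genes in that direction. The difference was then -0.22 on the log2 scale (95% interval -0.32 to -0.11, limma adjusted p = 0.0662), and with all libraries -0.19 (limma adjusted p = 0.187). Leaving out 10RT46 alone gave -0.22 (limma adjusted p = 0.0348), again with no count of the share of all genes.

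Ppib, an ER cyclophilin that folds collagen and other secretory proteins with P4hb, ranged from 842 to 1305 in HIP rats (median 950) and from 996 to 1910 in AKO rats (median 1072). AKO rat 6KAH98 and HIP rat 10RT46 held the highest values. The log2 fold change was -0.23 (95% interval -0.44 to -0.01, limma adjusted p = 0.36). Hspa5 had a median of 5367 in AKO rats and 4715 in HIP rats (-0.20, 95% interval -0.38 to -0.02), and Hyou1 a median of 2346 and 2085 (-0.13, 95% interval -0.26 to -0.01).

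Under sample-quality weights 5 genes passed the adjusted test in HIP vs. AKO rats, namely P4hb, Sdf2l1, Hyou1, Ppib and Derl3, against 6.69% of all genes under the same weights, and 13 had an unadjusted p under 0.05, against 25.1%. Without the 3 libraries set aside and AKO rats 4KAH27 and 6KAH98, an alternative chosen after the values were seen, 2 passed, P4hb (-0.19, limma adjusted p = 0.0344) and Derl3 (-0.57, limma adjusted p = 0.0401), against 1.12% of all genes. The count of 6 genes at the unadjusted threshold went to 3 without HIP rat 10RT42. It ran from 3 to 8 with any 1 rat left out, where the shares of all genes were not counted. Derl3 is also a marker of plasma cells. The other plasma cell genes found, Jchain, Ighm and Cd79a, had summed levels of 26.7 to 59.1 normalized counts in the 9 WT (median 41.6), 13.7 to 153.1 in the 8 HIP (median 46.3) and 30.5 to 152.6 in the 10 AKO rats (median 55.4), and Cd79a was at 0 in 3 WT, 2 HIP and 3 AKO rats. Their part in the Derl3 difference was not tested.

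**Figure D3:**
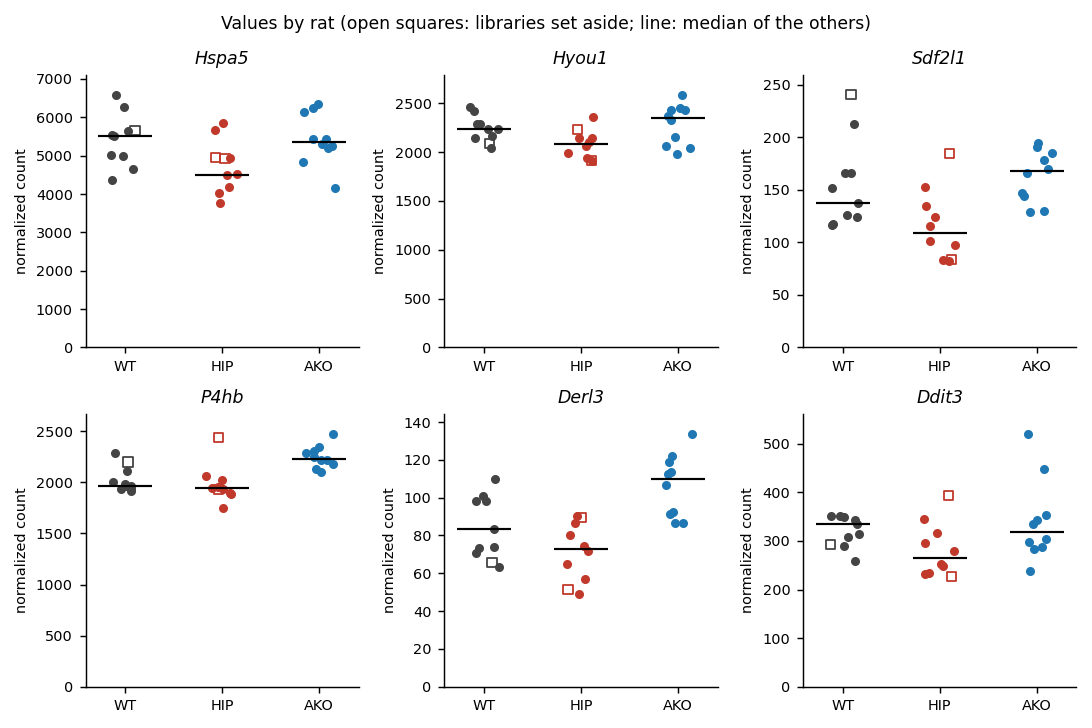
Each point is a rat, the y axis is the normalized count starting at 0, lines are medians without the libraries set aside, and open squares are those libraries. In Derl3 and Sdf2l1 most AKO rats sit above most HIP rats, and in P4hb no HIP rat outside the open squares reaches the lowest AKO rat, at 2096.

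The other ERAD genes were close between groups. Herpud1, which builds the HRD1 degradation complex, had medians of 1073 in WT, 1072 in HIP and 995 in AKO rats. The groups overlapped, and the log2 fold change was -0.06 in HIP vs. WT rats, -0.09 in the AKO to WT comparison and 0.03 between HIP and AKO rats. Syvn1, the ubiquitin ligase HRD1 itself, had medians of 1176, 1167 and 1194, and Sel1l, its adaptor, 3044, 3167 and 2993. Of the 9 ERAD genes, 6 had lower means in HIP than in WT rats, with a median log2 fold change of -0.04. Apart from Derl3, no ERAD gene (Derl1, Derl2, Edem1, Selenos, Os9, Herpud1, Sel1l, Syvn1) had an unadjusted p under 0.05 in any comparison.

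In the PERK-ATF4 arm, Atf4 had medians of 3764 normalized counts in WT, 3755 in HIP and 3674 in AKO rats. Its ranges, 3258 to 4318, 3105 to 4320 and 3005 to 7705, overlapped, and AKO rats 4KAH27 and 6KAH98 (4769) were above every WT and HIP rat. In HIP vs. WT rats the log2 fold change was 0.01 (95% interval -0.13 to 0.16), between AKO and WT rats 0.06, and between HIP and AKO rats -0.05. Without 4KAH27 the AKO to WT value was -0.048 and the HIP to AKO value 0.059. Eif2ak3, which encodes PERK, had medians of 535, 544 and 497.

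Ddit3 encodes CHOP, a transcription factor of prolonged ER stress. It ranged from 260 to 351 normalized counts in WT rats (median 324), from 228 to 394 in HIP rats (median 266) and from 238 to 520 in AKO rats (median 319). Most HIP rats were low, 8 of 10 below the WT median, although HIP rat 10RT46 was above every WT rat. The log2 fold change in HIP vs. WT rats was -0.19 (95% interval -0.39 to 0.01), and -0.23 (95% interval -0.41 to -0.05, limma adjusted p = 1) without the libraries set aside. In HIP vs. AKO rats it was -0.26, and -0.28 without them (limma adjusted p = 0.316).

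Asns, asparagine synthetase, was the only gene of the set with an unadjusted p under 0.05 and a higher mean in HIP rats. It ranged from 746 to 1035 in WT rats (median 861) and from 833 to 1057 in HIP rats (median 955). Only 1 HIP rat was below the WT median (log2 fold change 0.14, 95% interval 0.01 to 0.26), but without the libraries set aside the difference was 0.09 (95% interval -0.03 to 0.22). Chac1, which degrades glutathione, had medians of 312, 325 and 327 in WT, HIP and AKO rats. Trib3, a pseudokinase that CHOP and ATF4 raise, was low, with medians of 8.28, 5.56 and 4.29, and its intervals were wide (HIP vs. WT log2 fold change -0.21, 95% interval -0.85 to 0.42).

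Xbp1, the transcription factor of the IRE1 arm, had medians of 1857 in WT, 1745 in HIP and 1948 in AKO rats, and 9 of 10 HIP rats were below the WT median. The groups overlapped, and the log2 fold change in HIP vs. WT rats was -0.09 (95% interval -0.22 to 0.04). In AKO vs. WT rats it was 0.02, and in HIP vs. AKO rats -0.11 (95% interval -0.26 to 0.05). Gene-level counts do not separate spliced from unspliced Xbp1, so IRE1 activity was not measured. Ern1, the gene of IRE1, had medians of 56.8, 61.4 and 60.0, Atf6 of 892, 830 and 772, and Sec61b, a subunit of the channel through which proteins enter the ER, of 282, 250 and 268. None of the 4 had an unadjusted p under 0.05 in any comparison.

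Further genes of the pathway, 163 listed by role and 150 found, were counted in the same way. Of these, 0 had an adjusted p under 0.05 in HIP vs. WT (limma; 5 with an unadjusted p, 3.33% against 2.57% of all genes) and in AKO vs. WT rats (12 unadjusted, 8% against 9.34%). In HIP vs. AKO rats 14 had an unadjusted p under 0.05 (9.33% against 12.7%), and 22 without the libraries set aside (14.7% against 15.1%). In that comparison 1 passed the adjusted test, and it was Phgdh, the first enzyme of serine synthesis and an ATF4 target. Its normalized counts were 901 ± 150 in HIP, 1247 ± 169 in AKO and 933 ± 243 in WT animals (mean ± SD, n = 10 each). The log2 fold change in HIP vs. AKO rats was -0.47 (limma adjusted p = 0.0428), and -0.49 without the libraries set aside (limma adjusted p = 0.0307). The list of 34 other integrated stress genes to which Phgdh belongs had a median log2 fold change of -0.05 in that comparison. In HIP vs. WT rats, 16 of 36 other folding genes had lower means (median log2 fold change 0.01), against 14 of the 17 chaperones of the set. Without the libraries set aside these were 21 of 36 (median -0.01) and 15 of 17. The shift of the chaperones was thus not seen in the other folding genes.

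In a single AKO rat, 4KAH27, the arms parted. Its Atf4 level was 7705 normalized counts, against 3005 to 4769 in the other 9 AKO rats. Trib3 was 47.999 against 0.9746 to 8.17, Chac1 779 against 225 to 462, Ddit3 520 against 238 to 448, and Asns 1299 against 724 to 1056. Thus 5 of the 6 PERK-ATF4 genes were above all other AKO rats, and only the kinase gene Eif2ak3 was within their range.

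Herpud1 was 1943 in this rat against 787 to 1371 in the others, Edem1, which steers misfolded glycoproteins to ERAD, 823 against 306 to 550, and Dnajb9, an Hsp40 that restrains IRE1, 891 against 371 to 643. These were high as well. In contrast, 8 of the 17 chaperones and folding enzymes were below all other AKO rats, namely Hsp90b1, Calr, Pdia3, Pdia4, Pdia6, Dnajb11, Hyou1 and Creld2. Creld2, a disulfide isomerase-like protein, was 89.1 against 129 to 213, Pdia4 448 against 603 to 812, and Calr 5294 against 7107 to 11533. Hspa5 (4844) and Xbp1 (1768) were within the range of the others.

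The same rat was above all other AKO rats for 16 of 34 other genes of the integrated stress response and below them for 2. The genes named here were chosen after their values were seen. Over all genes it was highest for 18.2% and lowest for 18.8%. Among the 16 were Ppp1r15a, the phosphatase subunit that reverses eIF2α phosphorylation (2424 against 96.2 to 387), the stress transcription factors Atf3 (473 against 7.29 to 104) and Cebpb (590 against 60.2 to 101), the amino acid transporter Slc38a2 (12173 against 1329 to 2949), Sesn2 (1406 against 344 to 571) and the secreted factor Gdf15 (286, with at most 4.89 in the others).

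The genes with the promoter elements shown above were also set beside these levels, as a description. In this rat the 3 genes with a CARE had levels 13.2 (Trib3), 2.40 (Chac1) and 2.03 (Herpud1, which also holds an ERSE-II) times the median of the other AKO rats. Atf4, Ddit3 and Asns were high with no CARE found. The 7 genes with an ERSE other than Hspa5 had a median ratio of 0.787, and the 22 genes with a promoter and no ERSE one of 1.12. Most of the 7 are chaperones and the 22 include PERK-ATF4 genes, so these medians repeat the split of the arms. They say nothing of the element itself. Among chaperones with no ERSE found the ratio ran from 0.64 (Pdia4) to 1.71 (Dnajb9). Dnajc3, which inhibits PERK and holds an ERSE, was at 1.35. Library 4KAH27 had 12.9 M estimated reads, the lowest of the 30, and its summed level of striatal markers, 23931, was above the 6064 to 13347 of the other AKO rats. Of 21 marker lists it was highest for 4 and lowest for 5. The part of these in its stress gene levels was not tested, and a single rat allows no test.

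**Figure D4:**
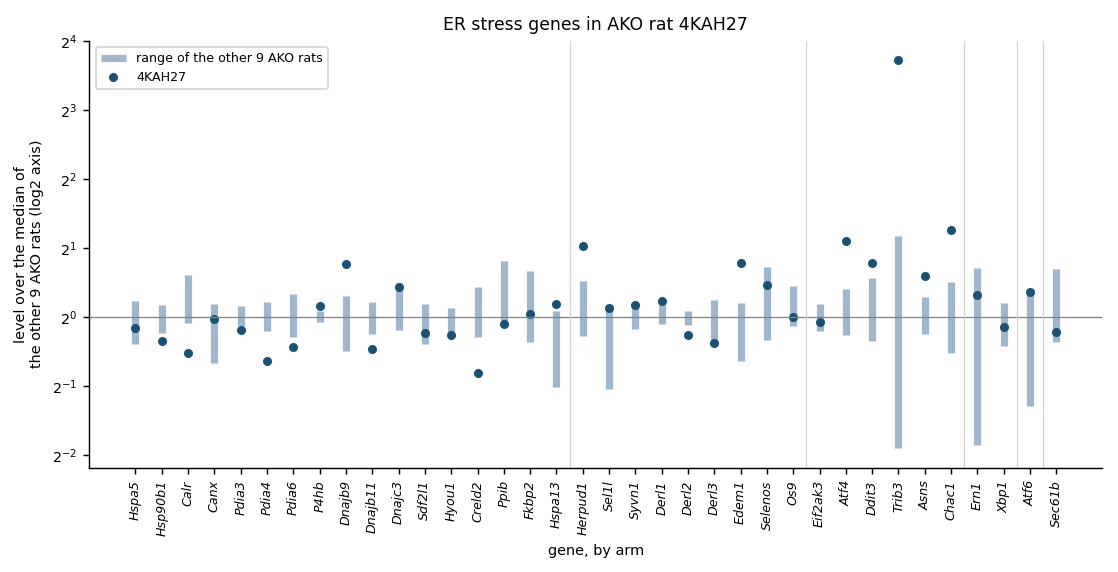
Points give the level of each gene in AKO rat 4KAH27 over the median of the other 9 AKO rats on a log2 axis, and bars the range of those 9 rats. Of the 6 PERK-ATF4 genes, 5 lie above the bars, up to 13.2 for Trib3, and many chaperones lie below them.

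AKO rat 6KAH98 also stood apart, and the genes named here were chosen after their values were seen. Calr (11533 against at most 8331 in the other AKO rats), Ppib (1910), Fkbp2 (1911), Pdia6 (2565), Os9 (3934) and Sec61b (440) were high, and Canx (3993), Hspa13 (618), Sel1l (1437) and Atf6 (313) low. The lectin chaperones Calr and Canx thus went opposite ways. In this rat 11 of the 36 genes of the set were the highest and 9 the lowest of the AKO group. Over all genes the shares were near these, 23.8% and 27.5%.

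Across rats, with group means removed and the libraries set aside left out, several chaperone genes varied with Hspa5 from rat to rat. The relations of 10 pairs, chosen for their roles, were tested by two-sided permutation within groups (100000 resamples, 27 rats). Benjamini-Hochberg adjustment was over the 10. Hsp90b1 (GRP94, the ER Hsp90) followed Hspa5 most closely (Pearson's r = 0.79, permutation p = 2e-05, adjusted 0.0002, Spearman's rho = 0.79, permutation p = 2e-05). Next were Pdia4 (r = 0.65, rho = 0.70), Sdf2l1 (r = 0.61, rho = 0.60), Xbp1 (r = 0.52, rho = 0.51), Creld2 (r = 0.50, rho = 0.52) and Calr (r = 0.42, rho = 0.57), with adjusted permutation p-values of 0.0016, 0.00487, 0.0105, 0.0105 and 0.0359 for r and of 0.0009, 0.00565, 0.0111, 0.0111 and 0.0062 for rho. Without the 2 rats farthest from the Hspa5 median these r were 0.73 for Hsp90b1, 0.77 for Pdia4, 0.67 for Sdf2l1, 0.47 for Xbp1, 0.50 for Creld2 and 0.40 for Calr.

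Herpud1 and Atf4 did not follow Hspa5. Their r was 0.14 (permutation p = 0.503, rho = 0.21, permutation p = 0.293) and -0.12 (permutation p = 0.526, rho = -0.11, permutation p = 0.569). Atf4 and its target Asns varied together (r = 0.81, permutation p = 0.00011, adjusted 0.00055, rho = 0.63, permutation p = 0.0009). The farthest rats included 4KAH27, and without them r was 0.59. Ddit3 and Trib3 gave r = 0.59 (permutation p = 0.00735, adjusted 0.0105), but rho was 0.33 (permutation p = 0.103) and r was 0.16 without the farthest rats, 4KAH27 and 6KAH99, so this relation rested on those rats.

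As a description, the median r over pairs was 0.20 within the chaperones, -0.05 within ERAD genes and 0.61 within the PERK-ATF4 genes with a mean of at least 10, against -0.0013 for all pairs of genes. Without AKO rats 4KAH27 and 6KAH98 the PERK-ATF4 value was 0.15 and the chaperone value 0.21. Between chaperones and PERK-ATF4 genes the median was -0.16, and -0.01 without those rats.

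A pair of opposed blocks crossed the arms. The membrane proteins calnexin (Canx) and Sel1l, the sensors Ern1 and Atf6, and the Hsp70-like Hspa13 varied together, with a median r of 0.85 over their 10 pairs (0.78 to 0.92). The prolyl isomerases Ppib and Fkbp2, the ERAD lectin Os9 and the selenoprotein Selenos formed the other block (median r 0.68 over 6 pairs). Between the blocks the median r was -0.80 over 20 pairs (-0.90 to -0.46). Without AKO rats 4KAH27 and 6KAH98 these medians were 0.59, 0.41 and -0.53. The blocks were chosen after their values were seen, so no test is given. Genes outside the set that vary along them were not counted, so the blocks cannot be read as particular to ER genes.

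Of the 34 other genes of the set with a mean of at least 10, 6 were among the 100 genes most like Hspa5 of 15444 ranked by r over the 27 rats. These were Hsp90b1 (rank 1), Hyou1 (rank 6), Pdia4 (rank 12), Sdf2l1 (rank 24), Pdia3 (rank 25) and Xbp1 (rank 95). The 10 genes outside the set with the highest r were Wdr45b (0.73), Dcaf11 (0.72), Bms1 (0.72), Ncbp1 (0.72), the cytosolic Hsp70 Hspa8 (0.68), the Hsp90 cochaperone Chordc1 (0.67), Zdhhc5 (0.66), Galnt11 (0.65) and the unnamed ENSRNOG00000067296 (0.67) and ENSRNOG00000068332 (0.64). The points share library depth, with which Hspa5 had r = 0.23. The 7 genes with an ERSE had a median r of 0.42 with Hspa5, from -0.01 for Derl3 to 0.79 for Hsp90b1. The 21 genes with a promoter, no ERSE and a mean of at least 10 had a median of 0.00, with Hyou1, which has an ERSE-II, the highest at 0.72. These lists also differ by arm, and among the chaperones with a promoter and no ERSE r ran from -0.22 (Fkbp2) to 0.72 (Hyou1).

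**Figure D5:**
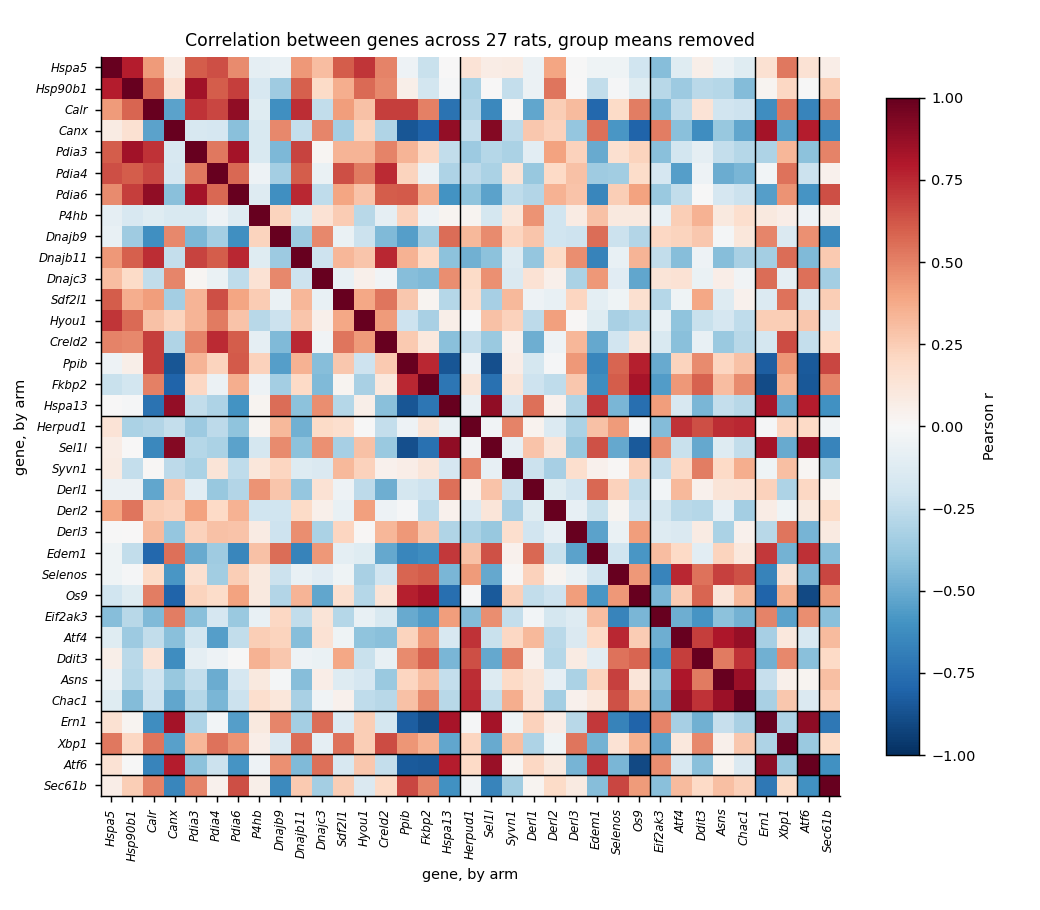
Color gives Pearson's r between each pair of genes with a mean of at least 10 across 27 rats, with group means removed, ordered by arm on both axes. Positive values join Hspa5 with Hsp90b1 (0.79), Pdia4 and Hyou1, and Atf4 with Asns (0.81), Ddit3, Chac1 and Herpud1, and blue squares set Canx, Hspa13, Sel1l, Ern1 and Atf6 against Ppib, Fkbp2, Os9 and Selenos.

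The spread between rats set what could be seen. In the 9 WT rats the coefficient of variation was 2.98% (Pdia6) to 21.5% (Sdf2l1) among chaperones, with a median of 7.59%, 12.5% at the median of ERAD genes, and up to 39.4% for Trib3. At these spreads the 95% intervals of HIP vs. WT rats lay within a 2-fold difference in either direction for every gene of the set with all libraries, and without those set aside for every gene but Trib3 (-1.04 to 0.20).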

How the data were processed

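Brain RNA of 30 male rats (frontal cortex per the labels) was sequenced with a SMARTER mRNA-Seq kit. The authors deposited a table of DESeq2-normalized read counts, a signal that is not whole counts, for 17134 genes; per the labels and processing notes Partek Flow 10.0.22.0228, STAR 2.7.8a, Bowtie2 and DESeq2 (versions not given in the sources used here), genome rn7 and Ensembl 105 were used. Raw counts were not analysed here. Since low values are multiples of the value of 1 read, reads per library were estimated (80.6 to 84.0% of values below 100 were whole multiples, tolerance 0.02 reads).

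Groups were taken from the genotype label. The 36 genes and all lists were chosen with earlier results of these data known. Values were tested as log2(value + 1), which understates changes of low genes, in genes with a mean of at least 1, with limma 3.58.1 (R 4.3.3; lmFit, eBayes with trend), two-sided, on the groups compared, with Benjamini-Hochberg adjustment over all genes and a threshold of 0.05. The fit was tried on counts simulated from the means of the WT rats not set aside, with the same dispersion for every gene (16956 genes). There 198 of 200 genes changed 2-fold were recovered and 10 unchanged genes were called. Smaller changes, outlying rats and mixed tissue were not simulated, so this does not give the power of the comparisons. Libraries with Gabra6 or Tph1 above 100 were set aside in a second fit. Correlations used log2 values less group means, in Python 3.11.15 with numpy 2.4.6 and scipy 1.17.1.

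The genes described in full were Hspa5, Xbp1, Atf4, Ddit3, Herpud1 and Hyou1, genes of the set with an adjusted p under 0.05 or, failing that, an unadjusted one (up to 12), those with an outlying rat, the 10 other genes most like Hspa5, and other pathway genes with an adjusted p under 0.05 (up to 10). The alternatives were other pseudocounts, filters, normalizations, weights and covariates, a common fit, and leaving out each rat. Promoters came from RefSeq (GRCr8). The sequence of 1 promoter element is not reported here. No coordinates of the deposited table were used.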

Additional observations from a re-analysis of the deposited data

Results flagged for a closer look

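Within groups of 10 rats, the highest or lowest value of a gene was compared with its nearest neighbor by Dixon's criterion at its 95% critical value. Of 108 groups (36 genes in 3 genotypes) 25 were past it, and 21 on the log2 scale. Chance gives about 1 in 20 groups, or 5.4, if values are normally distributed. The same count over all genes was not made. Rats 6KAH98, 10RT43 and 10RT46 were highest of their group for 23.8%, 29.4% and 22.1% of all genes. The number thus cannot be read as particular to this set. The 25 values fell on 5 rats, and no explanation was tested.

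AKO rat 6KAH98 held 10 of them. It was highest for Calr (11533 normalized counts), Pdia6 (2565), Ppib (1910), Fkbp2 (1911), Os9 (3934) and Sec61b (440), and lowest for Canx (3993), Hspa13 (618), Sel1l (1437) and Atf6 (313). AKO rat 4KAH27 held 6, all highest, for Atf4 (7705), Trib3 (47.999), Chac1 (779), Herpud1 (1943), Edem1 (823) and Dnajb9 (891). On the log2 scale it held 3, with Atf4 and Trib3 highest and Pdia4 lowest. That scale also flagged WT rat 10RT50, lowest for Selenos.

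WT rat 10RT43, the library with cerebellar Gabra6, held 5. It was lowest for Pdia6 (1435) and highest for Syvn1 (1374), Derl1 (1552), Eif2ak3 (795) and Sec61b (360). HIP rat 10RT46, the library with pineal Tph1, was highest for P4hb (2437), Ppib (1305) and Sec61b (436). HIP rat 10RT42 was lowest for Creld2 (116).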

How the results depend on the processing

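Of 28 fold changes described, 306 of 326 values under other settings and 536 of 560 with a rat left out kept their direction and side of the adjusted threshold. The number of genes of the set past the adjusted threshold was 0 in HIP vs. WT rats in every setting run. In AKO vs. WT rats it was 1 with sample-quality weights, and the number at the unadjusted threshold was then 5. In HIP vs. AKO rats it was 1 with all 30 rats in a common fit, 5 with sample-quality weights (13 unadjusted), and 2 without the libraries set aside and AKO rats 4KAH27 and 6KAH98, a setting chosen after the data were seen. At the unadjusted threshold HIP vs. WT rats had 2 genes in the common fit and 0 with estimated reads as a covariate. With a rat left out the numbers ran from 2 to 7 for HIP vs. WT unadjusted, and for HIP vs. AKO from 0 to 2 adjusted and 3 to 8 unadjusted. The shares of all genes in the fits with a rat left out were not counted. The causes were not tested.

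The values with a reversed sign were these. In AKO vs. WT rats Atf4 and Ddit3 were -0.034 and -0.025 with the reads covariate, -0.022 and -0.0066 with quality weights and -0.075 and -0.080 without the 2 AKO rats, where Xbp1 was -0.0045, and Hspa5 was -0.013 with library number as a covariate. Atf4 was -0.00012 in HIP vs. WT rats under quantile normalization, and in HIP vs. AKO rats 0.066 with quality weights and 0.15 without the 2 AKO rats, where r of Hspa5 with Atf4 was 0.064 and that of Ddit3 with Trib3 0.42 (adjusted permutation p = 0.0533). With a rat left out, values ran from -0.012 to 0.041 for Atf4 in HIP vs. WT, in AKO vs. WT from -0.030 to 0.045 for Hspa5, -0.048 to 0.10 for Atf4, -0.0041 to 0.12 for Ddit3 and -0.014 to 0.054 for Xbp1, and in HIP vs. AKO from -0.021 to 0.12 for Herpud1 and -0.092 to 0.059 for Atf4. No paired analysis was possible because the rats carry no number shared between groups. Depth limits Trib3 most, with medians of 4.29 to 8.28 normalized counts.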
